A study of Homo sapiens with 4 samples.

Results

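MAGED1 and 5 relatives of the melanoma antigen (MAGE) family were followed through 4 expression arrays of HepG2, a line grown from a human hepatocellular carcinoma. Of the 6 genes, 5 were found by their symbol in the probe annotation, each with 1 probe, among 17778 named genes in all. These were MAGED1, MAGEH1, MAGEL2, NDN and MAGEE1, and no probe carried the name MAGED2, which was therefore not analysed here. MAGED1 was chosen by its fall in this same contrast, that is by its control and berberine signals in these 4 samples, and the others because they belong to its family. The fold changes of the 5 genes are therefore given as a description, with no p-value.

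The study concerned the effect of berberine, a plant alkaloid, on the viability of these cells. The 2 control samples were HepG2 cells without berberine, and the 2 berberine samples were HepG2 cells given 26.95 µM berberine for 24 hours. All 4 were grown in DMEM with fetal bovine serum, and total RNA was labelled with Cy5. The description field of the same samples instead names an MDI differentiation of 48 hours, with berberine at 13.47 µM in the treated pair, and this conflict was not resolved. Nothing in the labels places replicates in separate cultures, so the spread between them may be technical.

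The 26423 deposited intensities per sample had medians from 62 to 90, and control 2 stood apart at the dim end, where its 5th percentile was 4 against 25 to 30 in the others. Probe names and annotation are those of a mouse array, 528 of its genes being named as mouse olfactory receptors, so a value under a MAGE name is the signal of a mouse probe on RNA labelled as human. Levels below are log2(intensity + 1) after quantile normalization, which gives the 4 samples 1 shared distribution. As a reference for background, picked after earlier results were seen, the level of 9.24 was taken, below which 95% of these receptor genes lay, and 1626 genes had means above it. The median level of the receptor genes was 6.05. Levels below 9.24 are called the background range here, which does not show that they lack signal. Of the 38 marker genes measured for hepatocytes, adipocytes, fibroblasts and macrophages, 0 lay above 9.24, those of hepatocytes included. The labelled cell type could therefore not be checked by markers above background. The number of arrays limits the precision of every value.

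MAGE proteins share a conserved fold, the MAGE homology domain, through which many of them bind RING-type ubiquitin ligases and alter what those ligases act on. Genes of the MAGEA, MAGEB and MAGEC groups (type I) are mostly silent outside the germ line and become active in many tumours. The type II genes, to which MAGED1, MAGED2, MAGEH1, MAGEL2, NDN and MAGEE1 belong, are expressed in many normal tissues. MAGED1, also known as NRAGE and Dlxin-1, is an adaptor protein. It binds the p75 neurotrophin receptor, the Praja-1 ubiquitin ligase and homeodomain factors of the DLX and MSX groups.

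The reference holds 2 start sites for human MAGED1, both on the forward strand of the X chromosome, and their 300 bases are shown because MAGED1 is the gene whose signal changed. Each window runs from 250 bases before to 50 bases after the start, 5′ to 3′, from RefSeq on GRCh38.p14. The sequences are those of the human gene, not of the mouse probe, and the array does not tell the start sites apart. Capitals mark matches, on either strand, to the motifs described after the sequences.

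MAGED1 start at chrX:51802826-51803125: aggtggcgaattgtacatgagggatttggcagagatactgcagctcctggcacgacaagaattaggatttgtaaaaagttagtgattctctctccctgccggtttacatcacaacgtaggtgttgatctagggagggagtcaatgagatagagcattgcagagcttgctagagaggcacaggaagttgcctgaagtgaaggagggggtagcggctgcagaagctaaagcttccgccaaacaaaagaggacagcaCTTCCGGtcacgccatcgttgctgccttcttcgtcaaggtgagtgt
MAGED1 start at chrX:51893373-51893672: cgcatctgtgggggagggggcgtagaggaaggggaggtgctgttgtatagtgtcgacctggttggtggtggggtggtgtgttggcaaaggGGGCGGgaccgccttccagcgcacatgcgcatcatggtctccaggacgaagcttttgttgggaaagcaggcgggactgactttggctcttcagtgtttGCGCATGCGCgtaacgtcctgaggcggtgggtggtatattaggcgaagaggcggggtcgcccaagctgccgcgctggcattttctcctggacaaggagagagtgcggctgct

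The first window had 1 match to the ETS motif CTTCCGG, which 10.3% of 35116 promoters in the table hold. The other window had a GC content of 61.0%, against a median of 58.7% over all promoters. It held 2 overlapping matches, 1 on each strand, to the motif GCGCATGCG of the factor NRF1, found in 1.92% of promoters, and 1 GC box (GGGCGG), found in 45.0%. Neither window matched the EGR1 motif GCGNGGGCG, which can overlap a GC box, the CRE TGACGTCA or the AP-1 motif TGANTCA, which 9.43%, 1.85% and 7.71% of promoters hold. A match is a string of letters and was not shown here to be bound. Of the other members, MAGED2 and MAGEE1 also lie on the X chromosome in that table. NDN and MAGEL2 lie on chromosome 15 with starts 39438 bases apart.

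MAGED1 had a bright probe whose signal was far lower in both berberine samples. Control 1 had a deposited intensity of 14929 and control 2 of 12838, whereas berberine 1 had 1823 and berberine 2 had 2328. Every berberine value was thus below every control value, and the mean with berberine was 14.9% of the control mean before the normalization done here. On the normalized log2 scale MAGED1 read 13.64 and 13.78 in the controls and 11.07 and 11.15 with berberine. The difference of the MAGED1 group means, 13.71 ± 0.10 and 11.11 ± 0.05 (SD, n = 2 in each), was -2.60 on the log2 scale with an SE of 0.119, which is 6.05-fold lower. This SE and those below are moderated by limma towards the variance of all genes, not taken from the gene's own samples alone. In bulk RNA, fewer cells with the transcript and less of it per cell cannot be told apart.

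The replicates of MAGED1 lay close together compared with that difference. Control 1 and control 2 differed by -0.14 and berberine 2 and berberine 1 by 0.08 in log2 level, whereas the 4 pairings of a berberine with a control sample gave differences from -2.71 to -2.49. The order of its normalized levels was control 2, control 1, berberine 2, berberine 1, and neighbours within a group were separated by at most 0.14. As deposited, control 1 (14929) was instead above control 2 (12838), so the spread within groups given here depends on the quantile normalization. Its pooled replicate SD was 0.080, equal to the median of 0.080 over the brightest 10% of genes.

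MAGED1 ranked 36 by control mean and 350 by berberine mean among the 17778 genes. Even after the fall its signal stayed above the olfactory receptor reference in both berberine samples, so the fold is set between measured signals on both sides. Among the 1626 genes above that reference by their mean over all samples, 4, MAGED1 included, were at least 4-fold lower and 7 at least 4-fold higher. These values describe what led to the choice of the gene and are no support for it.

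**Figure D1:**
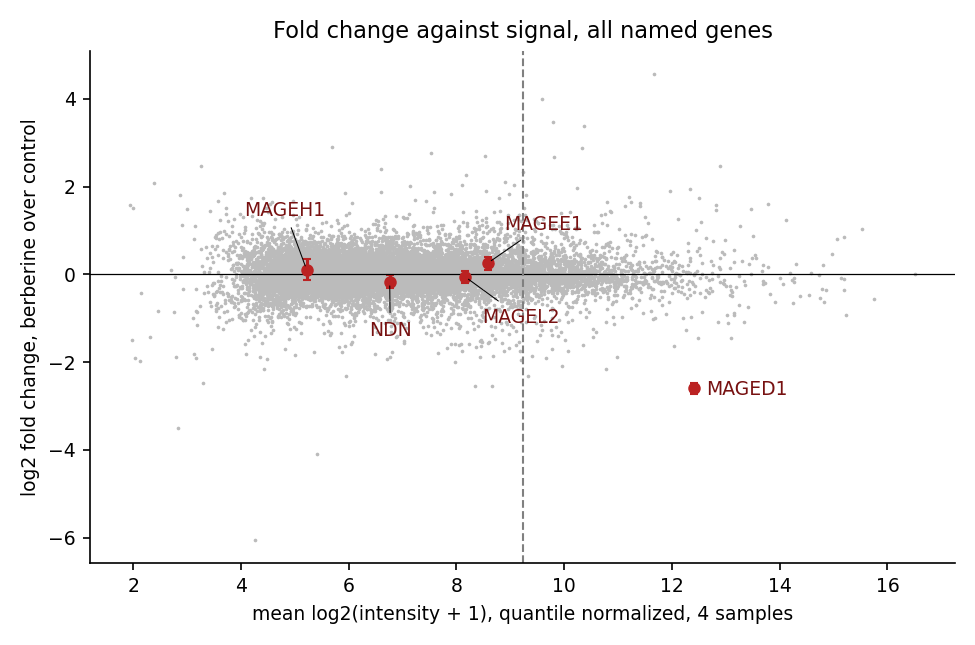
Each grey point is 1 of the 17778 named genes, with its mean log2 level over the 4 samples on the x axis and its log2 fold change (berberine over control) on the y axis. Red points are the 5 MAGE genes with bars of 1 SE, and the dashed line is the olfactory receptor 95th percentile at 9.24. MAGED1 lies at a mean of 12.41 and a log2 fold change of -2.60, and the other MAGE genes lie in the mass of points near 0.

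MAGEE1 and MAGEH1 are further type II genes, and neither had a probe above the reference. MAGEE1, which encodes a protein that binds dystrobrevin, had deposited intensities of 442 and 306 in the controls and 344 and 442 with berberine. After normalization MAGEE1 read 8.59 and 8.32 in the controls and 8.65 and 8.77 with berberine, so the groups were apart, with control 1 and berberine 1 nearly equal. Its log2 fold change was 0.26 with an SE of 0.148, and it turned to -0.03 with median centring. It was 0.08 with values as deposited, 0.12 without control 2 and 0.39 without control 1.

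MAGEH1, a small MAGE protein that can bind the p75 neurotrophin receptor, was the dimmest member. The control arrays gave deposited intensities of 51 and 12, and the berberine arrays 39 and 45. Only control 2 was low as deposited, which is the sample whose dim end stood apart. On the normalized scale MAGEH1 read 5.44 and 4.89 in the controls and 5.15 and 5.39 with berberine, and the groups overlapped. The log2 fold change was 0.10 with an SE of 0.235, and it was 0.72 with values as deposited, 0.61 with median centring, 0.45 without control 1, -0.17 without control 2, 0.21 without berberine 1 and 0.0099 without berberine 2.

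NDN and MAGEL2 are imprinted neighbours, active from the paternal copy, in the region of human chromosome 15 that is lost in Prader-Willi syndrome. NDN encodes necdin, a growth suppressor of neurons that binds E2F1 and p53. The deposited NDN intensities were 126 and 102 without berberine and 106 and 100 with it. NDN read 6.79 and 6.90 in the controls and 6.81 and 6.54 with berberine on the normalized log2 scale, and berberine 1 fell between the controls. The log2 fold change of NDN was -0.17 with an SE of 0.148, and it was -0.31 without berberine 1, -0.05 without berberine 2 and -0.10 without control 2.

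MAGEL2 encodes a partner of the ubiquitin ligase TRIM27 in recycling of membrane proteins from endosomes. MAGEL2 was deposited at 317 and 297 for the controls and at 229 and 307 for the treated pair, berberine 1 being the low sample. After normalization MAGEL2 read 8.10 and 8.28 in the controls and 8.03 and 8.23 with berberine, and the groups overlapped. The log2 fold change was -0.06 with an SE of 0.140. It was -0.32 with median centring and -0.21 with values as deposited, and turned to 0.05 without berberine 1 and 0.03 without control 2. Without control 1 and berberine 2 it was -0.15 and -0.16.

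**Figure D2:**
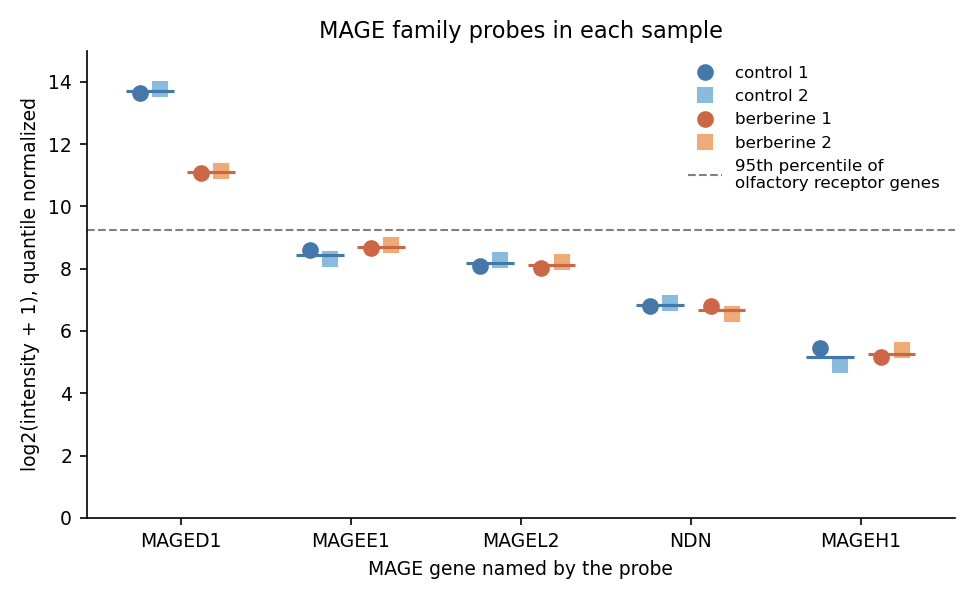
Points are the normalized log2 levels of each MAGE probe in control 1, control 2, berberine 1 and berberine 2, horizontal bars are group means (n = 2), and the dashed line is the olfactory receptor 95th percentile. MAGED1 drops from 13.71 to 11.11 and stays above the line, while the 4 other genes lie below it with group means at most 0.26 apart.

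Among the 5 members the groups did not overlap for 2, MAGED1 lower and MAGEE1 higher, where 45.0% of all genes had groups apart (23.3% lower and 21.7% higher). In the limma fit over all 17778 genes, 9 genes (0.0506%) had an adjusted p under 0.05, 8 (0.0450%) higher and 1 (0.00562%) lower. That 1 lower gene was MAGED1, which was chosen for this, so the call is no test of it and nothing is read from its count among the members. No gene passed with median centring, with each probe as its own row, or without control 1, control 2, berberine 1 or berberine 2, and the 2 genes that passed with values as deposited were both higher. Without 1 of these samples the log2 fold change of MAGED1 was between -2.65 and -2.55. Over the 13 alternatives the log2 fold change of MAGED1 ran from -2.86 to -2.55, or 7.27-fold to 5.86-fold lower. The signs of NDN and MAGED1 were negative in every alternative, whereas those of MAGEE1, MAGEH1 and MAGEL2 turned in at least 1. Alternatives in variance model, replicate block, gene filter or probe choice could not alter the fold of a gene with 1 probe. Their agreement in sign was therefore fixed in advance. The NDN groups overlapped, and its value of -0.17, with an SE of 0.148, became -0.05 without berberine 2.

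**Figure D3:**
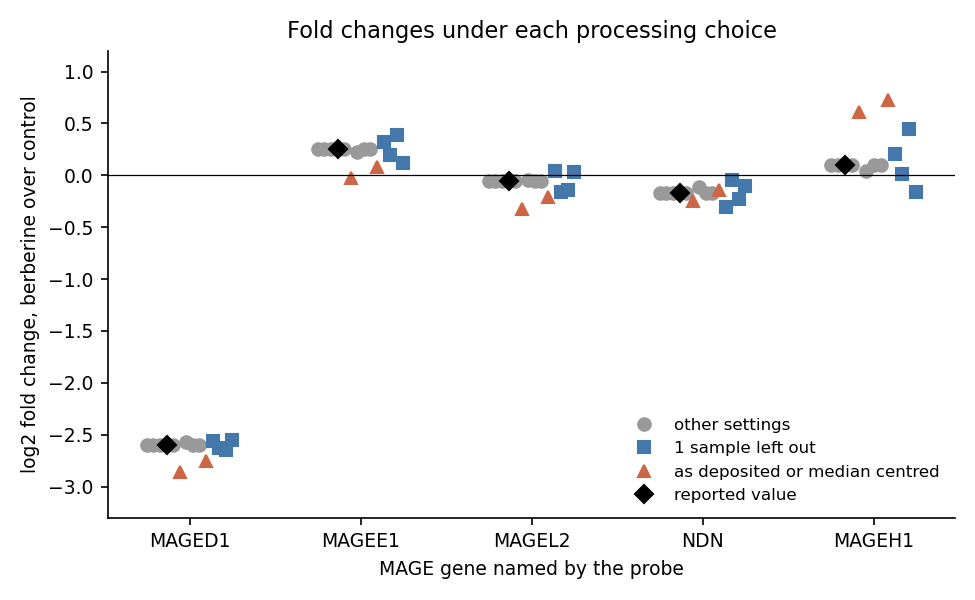
Each point is the log2 fold change (berberine over control) of a MAGE gene under 1 processing choice, with the reported value as a black diamond, fits without 1 sample as squares, and fits on values as deposited or median centred as triangles. MAGED1 stays between -2.86 and -2.55, and MAGEH1 spreads from -0.17 to 0.72.

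The rest of the MAGE family was read from a list of 29 genes, 9 of which had a named probe. These were MAGEA4, MAGEA10, MAGEB3, MAGEB4, MAGEB16, MAGEB18, MAGEE2, TRO (trophinin, a type II member) and NSMCE3, which the array names NDNL2 and which is a subunit of the SMC5/6 complex of DNA repair. In the limma test 0 of the 9 passed after adjustment over all genes and 1 had an unadjusted p under 0.05, and 0 lay above the olfactory receptor reference. MAGEB18 had the smallest p, with 6.35 and 6.11 in the controls and 5.72 and 5.88 with berberine (log2 fold change -0.43, limma adjusted p = 0.363), and MAGEB3 came next at 0.23 (limma adjusted p = 0.464). The median of the 9 log2 fold changes was 0.07 (0.24 with values as deposited, 0.13 with median centring) beside -0.0091 for all genes, and their values ran from -0.43 to 0.24.

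Over 12 lists, which also covered MAGE partners, imprinted genes and cell type markers, 148 of 188 genes were measured. Only 12 of the 148 had means above the olfactory receptor reference. The others, BMPR2, EID3 and SLC12A1 included, had means in the background range. Of the 148, 0 passed the limma test after adjustment, 26 (17.6%) had an unadjusted p under 0.05 against 13.0% of all genes, and 69 (46.6%) had groups that did not overlap against 45.0%. These shares of all genes are the background for the counts given for each single list. With an intensity trend in the variance model, an alternative setting, 4 passed, against 1.46% of all genes. These were EPC1 higher and E2F1, BEX3 and FGG lower, the last a hepatocyte marker.

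Ubiquitin ligases and partners of MAGE proteins (18 of 22 measured) had 0 members past the limma test and 2 with an unadjusted p under 0.05. PJA2, a relative of Praja-1, was at 0.43 (limma adjusted p = 0.347), while its other probe was at -0.46. RNF166, a ubiquitin ligase, was at -0.74 (limma adjusted p = 0.380), with all 4 levels at or below 4.89, in the background range. PJA1, which encodes the Praja-1 ligase that MAGED1 binds, read 4.60 and 4.51 in the controls and 4.67 and 4.32 with berberine, far in the background range. TRIM27, the ligase of MAGEL2, was at -0.29 (limma adjusted p = 0.441), and TRIM28, the ligase of several type I MAGE proteins, had a bright probe at -0.14 (limma adjusted p = 0.636). The median over this list was -0.0058, and 0.04 with values as deposited.

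The SMC5/6 complex, in which a MAGE protein sits beside the NSMCE1 ligase, had 8 of 8 listed genes measured, 0 past the limma test and 2 with an unadjusted p under 0.05. NSMCE4A, the kleisin subunit, read 9.41 and 9.34 in the controls and 8.80 and 8.44 with berberine (log2 fold change -0.75, limma adjusted p = 0.261). EID3, its paralogue, was at 0.50 (limma adjusted p = 0.286). The median over these genes was 0.12, and 0.03 with median centring.

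Receptor, cell death and BMP signalling partners of MAGED1 (20 of 24 measured) had 0 members past the limma test and 4 with an unadjusted p under 0.05. BEX3, which the array names NGFRAP1 and which binds the p75 receptor in cell death signalling, read 10.50 and 10.40 in the controls and 9.23 and 8.93 with berberine. Its groups were apart, with both berberine values below the reference. The log2 fold change was -1.37 with an SE of 0.152, and it passed with the intensity trend (limma trend adjusted p = 0.0204) but not without it (limma adjusted p = 0.115). NGFR, the p75 receptor itself, had a bright probe that read 10.70 and 10.71 in the controls and 10.48 and 10.42 with berberine (log2 fold change -0.26, limma adjusted p = 0.411). BMPR2, a BMP receptor, was at 0.38 (limma adjusted p = 0.307). Over this list the median was -0.08, and 0.08 with values as deposited.

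Transcription regulators linked to MAGED1 and necdin (19 of 21 measured) had 0 members past the limma test and 3 with an unadjusted p under 0.05. EPC1, a subunit of the NuA4 histone acetyltransferase, read 9.93 and 10.02 in the controls and 11.61 and 11.63 with berberine (log2 fold change 1.64, limma adjusted p = 0.0688, trend 0.00489). Its other probes were at 1.85 and 0.22. E2F1, the S phase factor that necdin binds, read 11.05 and 11.42 in the controls and 9.72 and 9.91 with berberine (log2 fold change -1.42, limma adjusted p = 0.126, trend 0.0286). MSX1, a homeodomain factor, was at -0.33 (limma adjusted p = 0.374). DLX5 was at -0.01, DLX1 at 0.56, DLX2 at 0.0051, DLX4 at 0.20 and DLX6 at -0.16. DLX3 was at 0.76 (limma adjusted p = 0.461), with 7.73 and 8.72 in the controls and 8.93 and 9.04 with berberine. RORA, a nuclear receptor that MAGED1 can coactivate, was at -0.12. The DLX genes and RORA had levels in the background range. Over this list the median was -0.04, and 0.13 with values as deposited.

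Clock genes under ROR control (8 of 10 measured) had 0 members past the limma test and 2 with an unadjusted p under 0.05. NFIL3, a repressor, was at -0.49 (limma adjusted p = 0.247), and NR1D2, a nuclear receptor that opposes the ROR factors, was at -0.37 (limma adjusted p = 0.380). BMAL1, which the array names ARNTL, CLOCK and NPAS2 were higher with groups apart, at 0.28, 0.26 and 0.17 (limma adjusted p = 0.428, 0.434 and 0.577). The other NPAS2 probe was at -0.38. All of these genes had levels in the background range. Over this list the median was 0.02, and -0.12 with median centring. Genes linked to MAGED2, the member without a probe, had 7 of 7 measured, 0 past the limma test and 2 with an unadjusted p under 0.05. The kidney salt transporters SLC12A3 and SLC12A1 were at -0.40 and -0.34 (limma adjusted p = 0.350 and 0.349), with a list median of -0.20. The other SLC12A3 probe was at -0.11, and SLC12A2, a related transporter named after its value was seen, was at 0.29.

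Imprinted genes (22 of 25 measured), listed for NDN and MAGEL2, had 0 members past the limma test and 1 with an unadjusted p under 0.05. PEG10, a retrotransposon-derived gene, was at -1.40 (limma adjusted p = 0.307) with control values of 4.60 and 5.29 in the background range. CDKN1C, the p57 inhibitor of cyclin-dependent kinases, had a bright probe that read 10.22 and 10.20 in the controls and 10.46 and 10.39 with berberine (log2 fold change 0.21, limma adjusted p = 0.477). MKRN3 and UBE3A, from the same chromosome 15 region as NDN and MAGEL2, were at 0.01 and -0.03. Over this list the median was 0.02, and -0.15 with median centring.

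**Figure D4:**
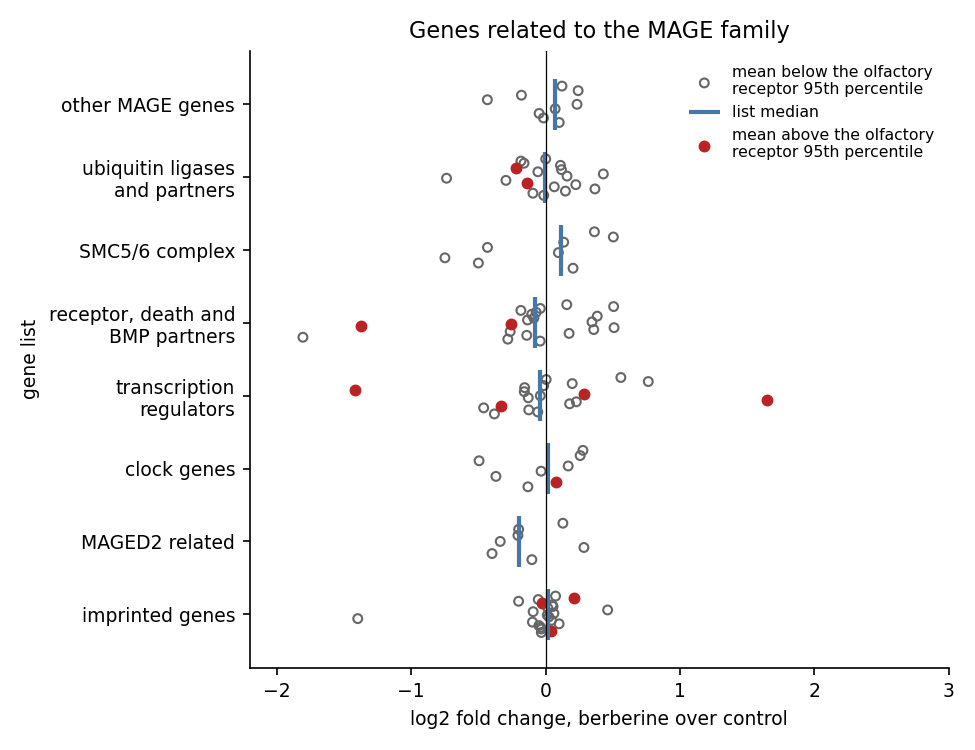
Each point is the log2 fold change (berberine over control) of a measured gene in 1 of 8 lists related to the MAGE family, filled red where its mean lies above the olfactory receptor 95th percentile, and blue bars are list medians. The medians lie between -0.20 and 0.12, and the filled points farthest from 0 are EPC1 at 1.64, E2F1 at -1.42 and BEX3 at -1.37.

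Cell type markers were read beside these values. Hepatocyte markers (12 measured) had 0 members past the limma test and 3 with an unadjusted p under 0.05, and their summed normalized intensity was 2120 and 2005 in the controls and 1478 and 1812 with berberine. In that sum APOA2 was low in berberine 1 only, at 7.30 against 8.92 and 8.98 in the controls and 9.04 in berberine 2. The sum of berberine 2, where APOA2 was not low, was also below both controls. The list median was -0.17, and -0.05 with values as deposited. Whether the markers share a fall was not tested. FGG, the fibrinogen gamma chain, at levels in the background range, was at -1.77 (limma adjusted p = 0.0688, trend 0.0163) and ALB, albumin, at -0.41 (limma adjusted p = 0.350). FGA, the fibrinogen alpha chain, was at -0.54 (limma adjusted p = 0.367), with its other probes at -0.18, -0.90 and 0.39. FGG, ALB and FGA were the 3 with an unadjusted limma p under 0.05, all lower. APOB and APOA1, of plasma lipoproteins, were at 0.37 and 0.24, named after their values were seen. The groups overlapped for APOB and were apart for APOA1. Adipocyte markers (11 measured) had 0 past the limma test and 4 with an unadjusted p under 0.05, beside 13.0% of all genes. The groups did not overlap for 9 of the 11, more of them lower than higher, beside 45.0% of all genes. FABP4 was at 1.00 and RETN at -1.20 (limma adjusted p = 0.143 and 0.233). LIPE and ADIPOQ, at -0.39 and -0.64 (limma adjusted p = 0.323 and 0.350), also had an unadjusted p under 0.05. The median of the adipocyte list was -0.09, and 0.18 with values as deposited. The adipocyte markers summed to 1834 and 1887 in the controls and 1688 and 1667 with berberine. Fibroblast markers (8 measured, POSTN at 0.96, PDGFRA at -0.36) summed to 472 and 476 and to 565 and 551, and macrophage markers (7 measured, CD14 at 0.40, ADGRE1 at -0.19) to 1013 and 956 and to 1116 and 1057, each list with 0 past the limma test and 1 with an unadjusted p under 0.05. POSTN, at 6.65 and 6.99 in the controls and 7.80 and 7.76 with berberine, had the largest change among the fibroblast markers. CD14, at 8.67 and 8.52 and then 9.01 and 8.98, had the largest among the macrophage markers. The list medians were -0.05 and -0.04 (0.26 and 0.08 with values as deposited), so these sums are not read as a shared rise. The part of these cell types in the fall of MAGED1 was not tested.

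The genes whose pattern lay nearest to that of MAGED1 were sought among the other 1625 genes above the reference, by the Euclidean distance between their 4 log2 values, each less its own mean. The nearest were FABP1, a fatty acid binding protein of liver, at a distance of 0.361, CSN2, named for beta-casein, at 0.512, CEBPA, a transcription factor of hepatocytes and adipocytes, at 0.746, IFI35, an interferon-induced gene, at 0.773, and CADM1, a cell adhesion molecule, at 0.773. FABP1 read 10.57 and 10.39 in the controls and 8.14 and 8.20 with berberine, and CEBPA 11.99 and 11.85 against 10.08 and 9.99. CADM1 read 12.23 and 11.48 in the controls and 9.71 and 9.67 with berberine, the widest control spread of these genes. Their log2 fold changes were -2.32, -2.10, -1.89, -1.85 and -2.16 in the order named. The berberine means of FABP1 (8.17), CSN2 (8.91) and IFI35 (8.48) lay in the background range, so their folds are not ranked against that of MAGED1. They were chosen for this pattern over the same 4 samples, so no test is given.

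**Figure D5:**
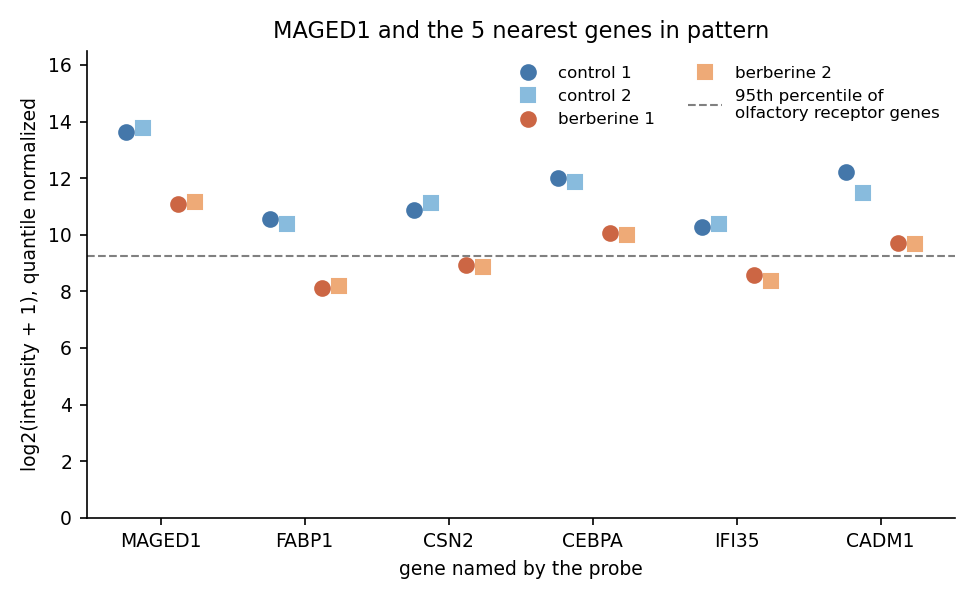
Points are normalized log2 levels in the 4 samples for MAGED1 and the 5 genes nearest to it in pattern, with the olfactory receptor 95th percentile dashed. All 6 are lower in both berberine samples, and FABP1, CSN2 and IFI35 drop below the dashed line whereas MAGED1, CEBPA and CADM1 stay above it.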

How the data were processed

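The deposited table gives a linear intensity for each probe, in whole numbers, of Cy5-labelled RNA per the labels' protocols. The scanner, background method and normalization used by the authors were not given in the sources used here. Deposited values below 0 occurred in control 2 (269), berberine 1 (1) and berberine 2 (11). After quantile normalization negative values became 0, and values were put on the log2(value + 1) scale. The annotation named 20377 probes with 1 gene symbol each, and the other 6046 were left out. A gene with several probes (2252 genes) was read from the probe with the highest mean. The fit (limma 3.58.1 under R 4.3.3, with lmFit and then eBayes with no trend) used all 4 samples, left 2 residual degrees of freedom and covered all 17778 genes, 2-sided, with Benjamini-Hochberg adjustment and a threshold of 0.05, and was tested on simulated data. Plots used matplotlib 3.10.9 (Python 3.11.15).

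The members and lists were chosen with earlier results of these data known. Of the 148 list genes matched, 7 were matched by an older symbol. The rule named every member, of each list the genes past the threshold or, with none, the 2 of smallest p, and the 5 genes nearest to MAGED1 in pattern. PJA1, TRIM27, TRIM28, NGFR, DLX5, RORA, MSX1, MKRN3, UBE3A, SLC12A2, APOA1, APOB and the other MAGE genes were named outside the rule, for their known role, after values were seen. APOA2, FGA, LIPE, ADIPOQ, BMAL1, CLOCK, NPAS2 and the other DLX genes were named outside it for their values, also after these were seen. Motifs were also chosen then. The alternatives were values as deposited, median centring, the dimmest 30% of genes left out, a pseudocount of 50, an intensity trend, the robust option, averaging the probes of a gene, fitting every probe separately, the replicate number as a block, and each sample left out.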

Additional observations from a re-analysis of the deposited data

How the results depend on the processing

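The log2 fold change of MAGED1 moved by more than its replicate SD in 2 of 13 alternatives, to -2.75 when values were left as deposited and -2.86 under median centring, and ran from -2.65 to -2.55 with 1 sample left out. The trend, robust, block, probe averaging, separate probe and dim gene settings could not change the fold of a gene with 1 probe. Its unchanged value there is therefore no sign of stability. The count of 9 genes past the limma threshold (8 higher, 1 lower) became 260 with an intensity trend (171 and 89), 251 with a pseudocount of 50 (166 and 85), 138 without the dimmest 30% of genes (92 and 46) and 2, both higher, with values as deposited. It was 0 with median centring, with each probe as its own row, with the replicate block and with each sample left out (0 to 0), where 2247, 3101, 1878 and 1380 to 2847 had an unadjusted limma p under 0.05. A sample left alone in its group is assumed to vary like the other group. Replicate numbers were not shown to pair the samples (correlation of deviations 0.090 over 17778 genes). Of the list genes, 0 passed in the reported fit, 4 with an intensity trend, 4 with a pseudocount of 50, 3 without the dimmest 30%, and 0 to 0 with a sample left out. MAGEH1 has no value without the dimmest genes. The probes of MAGEE1, MAGEL2, NDN and MAGEH1 all lay below the olfactory receptor reference, which limits their values. The causes of these shifts were not tested.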
